A study of Mus musculus with 51 samples.

Results

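Enzymes of the intracellular arms of cyclic nucleotide and phosphoinositide signalling, and relatives sharing their symbols, were described across captured regions of the mouse cochlea. Members were the listed genes whose symbols mark phosphodiesterases (Pde followed by a digit), subunits of cAMP-dependent and AMP-activated protein kinase (Prka), cGMP-dependent kinases (Prkg), phosphoinositide kinases (Pik3, Pip4k, Pip5k), phospholipases C (Plcb, Plcd, Plce, Plcg, Plch, Plcl) and protein kinase C (Prkc plus 1 letter). There were 56 members among 6248 genes. The choice used names only, not measured values. It therefore took in genes named as like these enzymes, such as Plcl1, Plcl2 and Pip5kl1, whose activity was not considered.

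Male CBA/CaJ mice aged 16 weeks were exposed to broadband noise at 100 dB SPL for 2 h or to a mock exposure without noise, with 5 animals per treatment. Titles and treatment entries add 4 h to the exposure, whereas the design text places collection directly after it. Fresh-frozen cochlear sections of 6 µm were profiled with GeoMx, which collects barcodes from chosen regions of a section, in regions titled neurons or supporting cells. No genotype or drug distinguished the groups, although the series title names a heat-shock activator. The groups held 16 mock neuron, 13 noise neuron, 14 mock supporting-cell and 8 noise supporting-cell regions. Noise neuron replicate 6 held a single repeated value and was left out, which left 12 noise neuron regions and 50 regions in all. Where a region held fewer cells of a type or less RNA per cell, the data cannot tell these apart.

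Cyclic AMP and cyclic GMP are made by cyclases, act on their kinases PKA and PKG, and are broken down by phosphodiesterases. Phosphoinositide kinases add phosphates to membrane inositol lipids, phospholipase C cuts one of these lipids into inositol trisphosphate and diacylglycerol, and diacylglycerol activates most forms of protein kinase C. In spiral ganglion neurons, which carry sound signals from hair cells to the brain, cyclic AMP is known to promote survival and neurite growth, and phosphoinositide signalling carries the response to neurotrophins.

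Depth was low. The deposited values, called signal here, are reads scaled to a common upper quartile. Reads recovered from them, at least 1 for every gene, ran from 10146 to 58015 in mock neurons, from 12127 to 88138 in noise neurons, from 9606 to 22924 in mock supporting cells and from 11768 to 25601 in noise supporting cells. In the same order, 30.9%, 21.3%, 48.0% and 31.9% of the members' values lay at 1 read. A single read was worth between 0.208 and 1.56 units of signal. The negative probe, which has no target, averaged 1.09 ± 0.314 (SD, n = 16), 1.12 ± 0.235 (n = 12), 1.54 ± 0.256 (n = 14) and 1.42 ± 0.202 (n = 8). The mean log2 value of olfactory receptor genes was 1.41, 1.60, 1.65 and 1.71. Of 14 neuron markers 10 were in the files, and their sums ran from 176 to 425, 105 to 266, 46.8 to 114 and 29.6 to 110.4, so that neuron and supporting-cell regions did not overlap after mock and overlapped slightly after noise. Of 12 glia markers 10 were in the files, and their sums ran from 27.0 to 57.7, 19.8 to 37.4, 104 to 192 and 48.9 to 87.3, highest in supporting-cell regions. All 10 neuron markers after mock and 9 after noise were higher in neuron regions by limma, while 8 and 5 glia markers were lower. Of 12 markers of organ of Corti supporting cells 3 were in the files, with median sums of 5.33 to 7.28 over the groups. Of the 2 tested, limma called 1 lower in neuron regions after mock and 0 after noise. Hair-cell markers (2 of 7), bone and connective tissue markers (3 of 7) and 1 of 5 blood markers had median sums of 3.22 to 4.78, 17.2 to 34.7 and 0.780 to 2.34. Of the 3 bone and connective tissue markers, 1 was called higher and 2 lower in neuron regions after mock. After noise these counts were 1 and 1. Macrophage markers were 0 of 6.

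The members' levels over the negative probe differed between groups. The median ratio of a member to the negative probe reached 2 for 18 of 56 members in mock neurons and 25 in noise neurons. It did so for 8 members in supporting cells after mock and for 15 after noise. These were 32.1%, 44.6%, 14.3% and 26.8% of members, against 37.4%, 41.0%, 11.5% and 18.1% of all genes. In all 4 groups it was reached by 6 members. They were the PKA regulatory subunits Prkar1a, Prkar2a and Prkar2b, which hold the catalytic subunit inactive until cyclic AMP binds, the lipid kinase Pip4k2a, the atypical protein kinase C Prkci, and Pde4dip, a scaffold protein named for binding a phosphodiesterase. In none of the groups was it reached by 28 members, among them the cyclic GMP-dependent kinases Prkg1 and Prkg2.

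**Figure D1:**
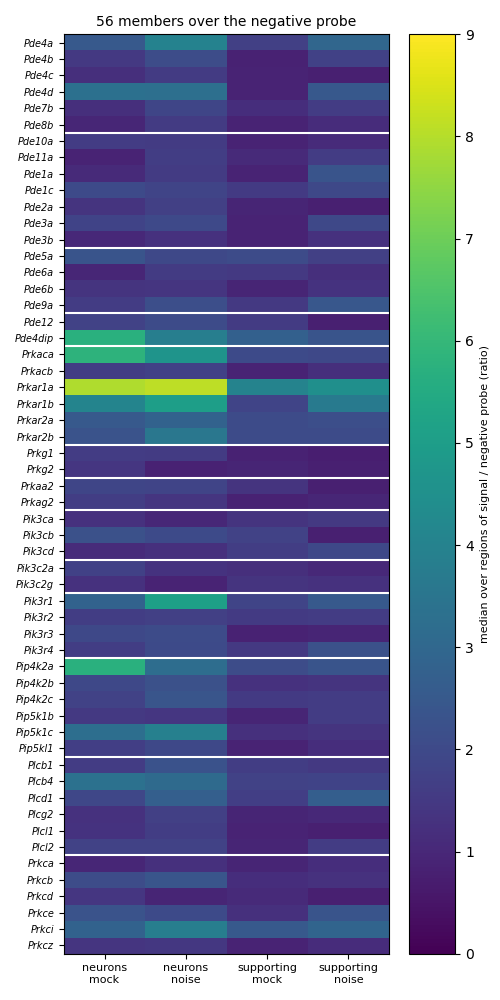
Median over regions of the ratio of each of the 56 members' signal to the negative probe (colour scale, ratio from 0 to 9), with genes in rows, families parted by white lines and the 4 groups in columns. Prkar1a has the brightest cells, at ratios of 7.94 and 8.12 in mock and noise neurons, while 28 members stay below a ratio of 2 in every group.

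Summed over the 56 members, the signal had medians of 133.9, 147.3, 140.1 and 145.7, and ranged from 118.5 to 212.1 over all regions. This sum mixes probes of different efficiency and serves only to follow 1 total across regions.

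The comparison of region types after mock exposure asked which members mark the neurons. Of 46 members tested, 3 were called and all were higher in neurons: Prkaca, the catalytic subunit of PKA that phosphorylates its targets once cyclic AMP frees it; Pip4k2a, a kinase that turns phosphatidylinositol 5-phosphate into the bisphosphate; and Pde4d, a cyclic AMP-specific phosphodiesterase. Over all 4686 genes tested 19.1% were called, and 13.4% were called higher in neurons. A call is an adjusted p below 0.05 in limma, a linear model fitted across all genes. Regions outnumber the 5 animals per treatment and the labels do not tie them to animals, so every p-value over regions is too small. Fold changes are differences of log2(signal + 1), and the added 1 shrinks them for low genes.

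Prkaca ranged from 1.56 to 10.9 in mock neurons, with a median of 6.24 (7 reads), and from 1.56 to 7.80 in mock supporting cells, with a median of 2.60 (3 reads). The groups overlapped, with 14 of 16 neuron regions above the supporting-cell median and 2 above its highest region. The means were 5.93 ± 2.38 (SD, n = 16) and 3.40 ± 2.06 (n = 14). On the log2 scale neurons were 0.70 higher with SE 0.20 (adjusted p 0.00604 by limma over regions). In the 14 mock areas where both region types had been captured, Prkaca was higher in the neuron region in 10, equal in 2 and lower in 2.

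Pip4k2a ranged from 3.12 to 12.5 in mock neurons (median 5.33) and from 1.04 to 7.80 in mock supporting cells (median 3.12). None of the 16 neuron regions lay below the supporting-cell median, and 14 lay above it. The means were 5.93 ± 2.43 (SD, n = 16) and 3.56 ± 2.20 (n = 14). On the log2 scale neurons were 0.68 higher with SE 0.20 (adjusted p 0.00724 by limma over regions). Within areas it was higher in the neuron region in 11 of 14 and lower in 3.

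Pde4d was at the floor of 1 read in 9 of 14 mock supporting-cell regions, where it ranged from 1.04 to 3.12 (median 1.56). In mock neurons it ranged from 1.56 to 7.02 (median 3.12), and 6 of 16 regions lay above the highest supporting-cell region. The means were 3.31 ± 1.43 (SD, n = 16) and 1.77 ± 0.555 (n = 14). On the log2 scale neurons were 0.59 higher with SE 0.20 (adjusted p 0.0181 by limma over regions). Within areas Pde4d was higher in the neuron region in 13 of 14 and equal in 1.

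These 3 calls held in each of 30 fits that left out 1 region of the compared groups. With the olfactory receptor mean of each region as a covariate none was called: the log2 fold changes of Prkaca, Pip4k2a and Pde4d were 0.27, 0.75 and 0.44, with adjusted p of 0.701, 0.0696 and 0.387, while the median over all genes moved from -0.05 to 0.12. Pde4d was not called by edgeR on the recovered reads (0.82, adjusted p 0.0641). With the negative probe subtracted Prkaca, Pip4k2a and Pde4d were all called, at 1.155, 1.134 and 1.143 (adjusted p 0.000953, 0.00124 and 0.00094 by limma). That fit also moved the median over all genes, as given below. Of the 14 alternatives, 13, 13 and 12 called these genes, in the same order. Depth and the negative probe moved with the region type too, as given above. Apart from that subtraction, their part in these differences was not tested.

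**Figure D2:**
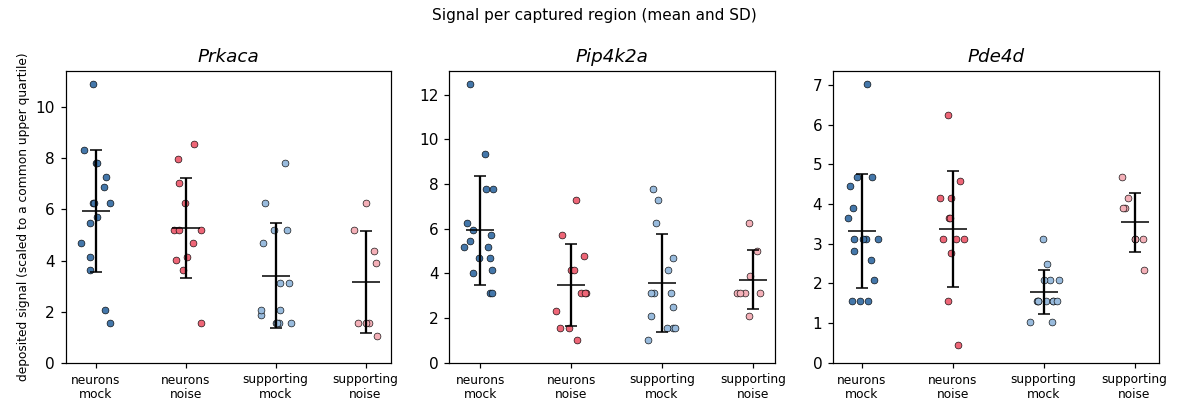
Deposited signal of Prkaca, Pip4k2a and Pde4d in each captured region (points) of the 4 groups, with the mean and SD (bars) of 16, 12, 14 and 8 regions. Mock neurons lie above mock supporting cells for all 3 genes with overlap, and for Pde4d the noise supporting-cell regions all lie above the mock supporting-cell median of 1.56.

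The promoters of the 3 called genes are shown with that of Prkar1a, the PKA subunit with the clearest signal over the negative probe, because CREB, the transcription factor that PKA phosphorylates, binds the cyclic AMP response element. The windows are RefSeq promoters on GRCm38.p6, 250 bases before to 50 after a start, read 5′ to 3′ on the gene's strand. Capitals mark TGACG or, from the other strand, CGTCA, the core of that element, and the full element TGACGTCA where both overlap.

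Prkaca, chr8:83972728-83973027, plus strand: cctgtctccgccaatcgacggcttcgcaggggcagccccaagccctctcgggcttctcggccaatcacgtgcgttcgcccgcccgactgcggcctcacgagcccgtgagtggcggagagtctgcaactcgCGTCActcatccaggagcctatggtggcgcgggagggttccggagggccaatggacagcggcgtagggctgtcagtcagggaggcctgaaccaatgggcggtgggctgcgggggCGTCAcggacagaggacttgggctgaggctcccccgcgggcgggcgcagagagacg
Pip4k2a, chr2:18998072-18998371, minus strand: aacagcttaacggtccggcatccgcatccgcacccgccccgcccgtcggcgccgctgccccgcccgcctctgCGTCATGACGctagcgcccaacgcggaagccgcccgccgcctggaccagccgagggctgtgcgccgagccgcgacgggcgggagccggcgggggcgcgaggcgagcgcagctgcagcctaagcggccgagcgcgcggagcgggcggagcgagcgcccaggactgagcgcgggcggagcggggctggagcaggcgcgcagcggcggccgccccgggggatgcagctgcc
Pde4d, chr13:108653927-108654226, plus strand: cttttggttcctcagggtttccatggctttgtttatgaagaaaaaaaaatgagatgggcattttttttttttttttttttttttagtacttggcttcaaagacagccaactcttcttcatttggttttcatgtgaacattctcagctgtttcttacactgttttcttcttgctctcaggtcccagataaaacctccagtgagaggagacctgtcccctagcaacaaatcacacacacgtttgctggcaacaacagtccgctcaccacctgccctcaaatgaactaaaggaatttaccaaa
Prkar1a, chr11:109650699-109650998, plus strand: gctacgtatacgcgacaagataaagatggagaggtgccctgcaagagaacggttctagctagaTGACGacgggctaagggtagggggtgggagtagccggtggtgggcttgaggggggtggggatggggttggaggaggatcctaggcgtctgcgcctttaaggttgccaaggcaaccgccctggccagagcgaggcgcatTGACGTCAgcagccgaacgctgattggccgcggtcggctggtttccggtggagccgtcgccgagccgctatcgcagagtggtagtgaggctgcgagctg

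The core occurred at 2 places in the Prkaca window and at 2 in the Pip4k2a window. Its letters were not in the Pde4d window, the only one listed for that gene. The Prkar1a window held the full TGACGTCA. Of the 96 promoters listed for 47 of the 56 members 3 held it: 2 of 6 Prkar1a windows, which overlap on the same site, and 1 of 3 Prkcz windows. Another listed Prkaca window held no match. Of all 32841 listed promoters, 1.79% held TGACGTCA and 20.8% held TGACG on either strand, against 24 of the members' 96 promoters (25%). A match describes these letters and is not a measured site.

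The remaining members gave no call between region types after mock. With the called ones included, 13 of 46 members had a log2 fold change above 0 and the median was -0.13, against -0.05 over all genes and -0.14 over the 923 tested genes whose symbols start with P. The share above 0 was 28.3% of members, 44.9% of all genes and 27.3% of the genes starting with P. Among the PKA subunits 4 of 6 lay above 0, from -0.23 to 0.70. The regulatory subunit Prkar1a was at a median of 8.78 in mock neurons and 6.24 in mock supporting cells (0.34 on the log2 scale, adjusted p 0.251). Within areas it was higher in the neuron region in 11 of 14.

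The 6 tested phosphodiesterases that break down both cyclic nucleotides all lay below 0, as did the 3 cyclic GMP-specific or PDE6 genes. Most members and most genes starting with P lay below 0 too. The dual-specificity Pde11a had medians of 1.04 in neurons and 1.56 in supporting cells after mock (log2 fold change -0.41, adjusted p 0.0935). The calcium-calmodulin-activated Pde1a had the same median of 1.56 in both (-0.33, adjusted p 0.214), and for its relative Pde1c the value was -0.20 (adjusted p 0.488). For Pde5a, which is specific for cyclic GMP, it was -0.11 (adjusted p 0.732), and for the cyclic AMP-specific Pde4a 0.09 (adjusted p 0.788).

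Of the lipid kinases, the class I catalytic subunit Pik3cd, best known from leukocytes, had a median of 1.56 in mock neurons and 2.60 in mock supporting cells, and 15 of 16 neuron regions lay below the supporting-cell median. Its log2 fold change of -0.47 (SE 0.18, adjusted p 0.057 by limma) missed the threshold, which it passed in 10 of the 30 fits that left out 1 region and with a pseudocount of 10 (adjusted p 0.049). Of 6 macrophage markers 0 were in the files, so leukocyte content was not tested. The remaining catalytic and regulatory subunits of phosphoinositide 3-kinase lay between -0.32 and 0.23, and the PIP4K and PIP5K genes other than Pip4k2a between -0.20 and 0.34. Genes with phospholipase C symbols lay between -0.32 and 0.06, the latter for Plcb4. The protein kinases C lay between -0.31, for Prkci, and 0.05. As regions were counted in place of animals, these p-values are too small.

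After noise the same comparison of neurons with supporting cells called 0 of 46 members by limma, against 7.94% of all genes. At an unadjusted p below 0.05 there were 8 members (17.4%), near the share of all genes (18.4%). edgeR called 2, Prkcd and Prkg1, which passed the filter on low values only through single regions described below. Prkaca ran from 1.56 to 8.58 around a median of 5.20 in noise neurons. In supporting cells after noise it ran from 1.04 to 6.24 around a median of 2.73, with 11 of 12 neuron regions above the supporting-cell median. Its log2 fold change was 0.67 (SE 0.25, adjusted p 0.0907), against 0.70 after mock (difference -0.03, 95% interval -0.67 to 0.61). In the 7 areas with both region types it was higher in the neuron region in 5, equal in 1 and lower in 1.

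Pip4k2a and Pde4d, the other members called after mock, were not called after noise. Both had log2 fold changes of -0.13 (95% intervals -0.63 to 0.36 and -0.61 to 0.35, adjusted p 0.848 for each). Within areas Pip4k2a was higher in the neuron region in 3 of 7, and Pde4d in 3 of 7. Whether the difference between region types itself differed between treatments is the test of unequal noise effects given below, and it passed for neither gene.

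Other members came closer to the threshold after noise. Pip5k1c, the kinase that makes phosphatidylinositol 4,5-bisphosphate at synapses, had medians of 4.03 in noise neurons and 1.82 in noise supporting cells, and 7 of 12 neuron regions lay above every supporting-cell region (log2 fold change 0.66, SE 0.25, adjusted p 0.0818). Pde1a had medians of 1.56 and 3.12, and 9 of 12 neuron regions lay below every supporting-cell region (-0.64, SE 0.23, adjusted p 0.0631). For Pde12, a mitochondrial RNA-degrading enzyme that shares only the symbol with the cyclic nucleotide phosphodiesterases, the medians were 2.34 and 1.04 (0.61, SE 0.23, adjusted p 0.0938). Pik3cd and Pik3r4, the adaptor of the class III kinase, had values of -0.52 and -0.49 (adjusted p 0.177 and 0.238). Leaving out single regions called up to 2 of Pde1a, Pip5k1c, Prkaca, Prkcd and Pde12 at a time, in 8 of 20 fits. All 6 tested PKA subunits lay above 0 in this comparison (median 0.18) and all 3 cyclic GMP phosphodiesterases or PDE6 subunits below it (median -0.17), where 26 of 46 members (median 0.07), 55.4% of all genes (median 0.05) and 43.3% of genes starting with P lay above 0. Counting regions for animals makes these p-values too small.

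**Figure D3:**
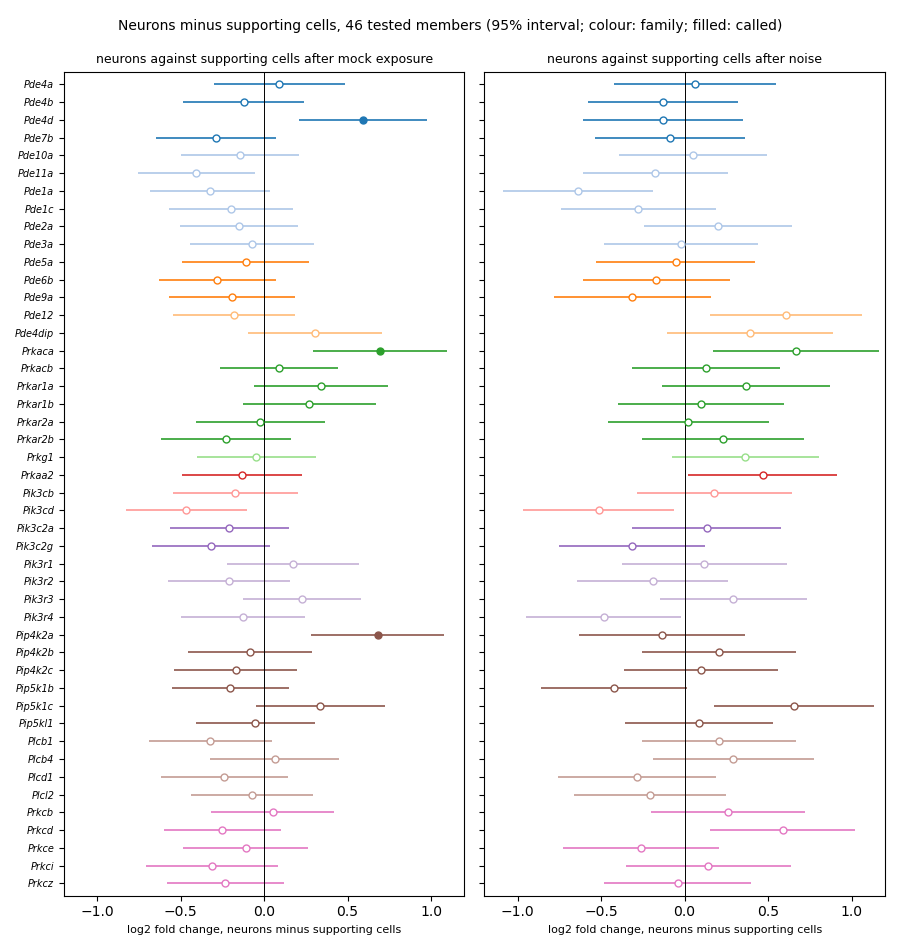
Log2 fold change of neurons minus supporting cells with its 95% interval for the 46 tested members (rows, coloured by family), after mock exposure (left) and after noise (right). Filled points mark Pde4d, Prkaca and Pip4k2a, called after mock; no point is filled on the right.

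Noise against mock in neuron regions asked which members changed with exposure. None of 46 was called by limma, against 0.662% of all genes (0.213% higher and 0.448% lower), and 2 had an unadjusted p below 0.05, Pip4k2a and Prkci (4.35% of members, against 13.5% of all genes). For 45 of 46 members, all but Pip4k2a, the 95% interval lay within 1 of 0 on the log2(signal + 1) scale, which for low genes leaves room for more than a 2-fold change in signal. With edgeR on the recovered reads 3 members were called (Pip4k2a, Prkcd and Prkg1). In simulated data with these depths the test found 41.2% of genes changed 2-fold and 96.8% of those changed 4-fold in this comparison. It also called 0 and 5 unchanged genes, with 4636 genes tested. The simulated regions were drawn independently with 1 spread for all genes, which real regions from shared animals need not follow. The p-values count regions and are too small. Area names had a prefix of their own in each treatment. These names do not say how regions were split over slides or scans, so treatment may not be separable from either.

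Pip4k2a ranged from 1.04 to 7.28 in noise neurons (median 3.12), where mock neurons had ranged from 3.12 to 12.5 (median 5.33). Of the 12 noise regions 10 lay below the mock median and 4 below every mock region. The log2 fold change was -0.67 (SE 0.21, adjusted p 0.125). By edgeR on the reads it was -0.66 (adjusted p 0.0353), and with regions centred on genes starting with P it was -0.78 (adjusted p 0.0234). The neuron and glia marker sums had lower medians after noise in these regions (212 against 266, and 28.8 against 45.2), with Nefh called lower, and their part was not tested.

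Prkci, an atypical protein kinase C of cell polarity complexes, ranged from 0.780 to 5.72 in mock neurons (median 2.73) and from 3.12 to 6.24 in noise neurons (median 4.44). All 12 noise regions lay above the mock median and 2 above the highest mock region. The log2 fold change was 0.53 (SE 0.21, adjusted p 0.222). In supporting cells the medians were 3.90 after mock and 4.03 after noise (0.07, adjusted p 0.955).

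The PKA subunits other than Prkaca all had values above 0 after noise in neurons, up to 0.40 for Prkar2b (medians 2.60 and 4.16, adjusted p 0.373). Prkaca itself had medians of 6.24 and 5.20 (-0.12, adjusted p 0.847), a sign that turned with the olfactory receptor covariate (0.21, adjusted p 0.896). Prkar1a was at 8.78 after mock and 8.30 after noise (0.01, 95% interval -0.41 to 0.43). The 6 phosphodiesterases of both nucleotides, the 4 genes with phospholipase C symbols and the 5 protein kinases C likewise all lay above 0. Their medians were 0.21, 0.15 and 0.17. Of the protein kinases C, Prkcd (0.34) was above 0 through noise neuron replicate 8, described below, and at -0.06 without it and replicate 5. The highest in the first of these families was Pde11a, with medians of 1.04 after mock and 1.82 after noise (0.35, adjusted p 0.399). Plcb4, a phospholipase C coupled to Gq, had medians of 3.12 and 3.38 (0.05, adjusted p 0.944).

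In all, 38 of 46 members lay above 0, with a median of 0.13, against 53.7% of all genes and a median of 0.02. Of these, 2 (Prkcd and Prkg1) were below 0 without the single regions described below. Genes starting with P shared this shift (69.8% of 923 above 0, median 0.12), and centring on them left a median of 0.02 for the members. With the olfactory receptor covariate the members' median was 0.06. Pik3r1, the main regulatory subunit of class I kinases, had medians of 2.90 after mock and 5.72 after noise, with 9 of 12 noise regions above the mock median, but a log2 fold change of 0.30 (adjusted p 0.539). The catalytic subunits Pik3cb and Pik3c2a had values of -0.01 and -0.07 (adjusted p 0.988 and 0.906). The scaffold Pde4dip was at medians of 5.85 and 4.33 (0.02, adjusted p 0.978), and Pde5a at 2.60 and 2.08 (-0.20, adjusted p 0.694).

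**Figure D4:**
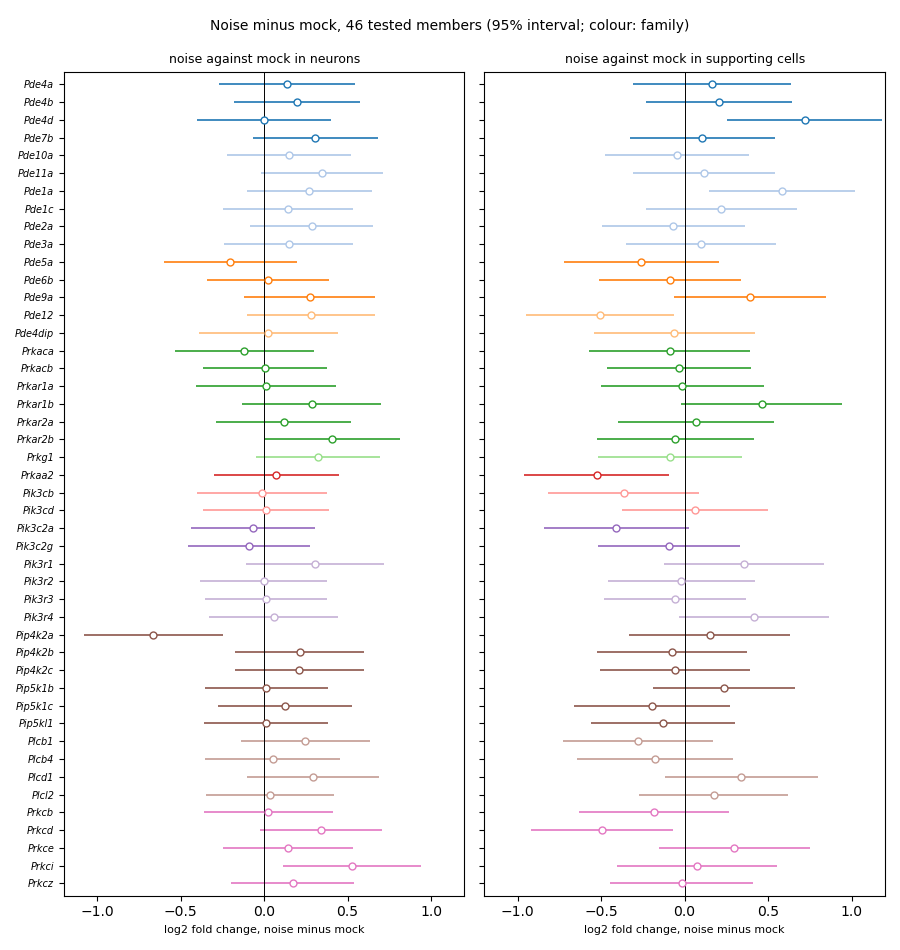
Log2 fold change of noise minus mock with its 95% interval for the 46 tested members (rows, coloured by family), in neuron regions (left) and supporting-cell regions (right). No member is called in either panel; in neurons 38 of 46 points lie right of 0, and the lowest is Pip4k2a at -0.67.

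In supporting-cell regions noise against mock again called 0 of 46 members by limma, against 0.363% of all genes (0.064% higher and 0.299% lower), and 5 had an unadjusted p below 0.05 (10.9% of members, 10.1% of all genes). edgeR called 0. The members' median was -0.03, as over all genes, with 20 of 46 above 0. On the log2(signal + 1) scale the 95% interval lay within 1 of 0 for 44 of 46, all but Pde4d and Pde1a, a bound wider than a 2-fold change in signal. Here the simulated test found 11.4% of genes changed 2-fold and 74.7% of those changed 4-fold, and called 2 and 18 unchanged genes. Again regions, not animals, were counted, and p-values are too small.

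Pde4d had the largest value. After mock it ran from 1.04 to 3.12 in supporting cells, with a median of 1.56 (1 read), and after noise from 2.34 to 4.68, with a median of 3.51 (3.5 reads). All 8 noise regions lay above the mock median and 4 above every mock region. The means were 1.77 ± 0.555 (SD, n = 14) and 3.54 ± 0.747 (n = 8). The log2 fold change was 0.72 (SE 0.24, adjusted p 0.159 by limma), and none of 14 alternatives called it (adjusted p 0.0706 to 0.685). Depth moved with it, with 48.0% of member values at the floor of 1 read after mock and 31.9% after noise. The glia marker sum moved too, from a median of 131 to 67.3, with Apoe, Mbp and Pmp22 called lower. Their part in the Pde4d values was not tested.

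Pde1a also lay high, with medians of 1.56 after mock and 3.12 after noise, and all 8 noise regions above the mock median (0.58, SE 0.22, adjusted p 0.284). It was at the floor in 9 of 14 mock regions and in 0 of 8 noise regions. The PKA regulatory subunit Prkar1b, abundant in nervous tissue, had medians of 3.12 and 5.41 (0.46, adjusted p 0.525). Prkaa2, the catalytic subunit of AMP-activated kinase that senses energy shortage, lay low at medians of 1.82 and 1.04 (-0.53, SE 0.22, adjusted p 0.356). Pde12 (-0.51) and the diacylglycerol-activated kinase Prkcd (-0.50) had adjusted p of 0.405 and 0.392. Each of these 3 was at 1 read in 6 of 8 noise regions.

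A test of unequal noise effects in neurons and supporting cells called 0 of 46 members and 0 of 4686 genes by limma (0% called), and 0 by edgeR. At an unadjusted p below 0.05 there were 5 members and 263 genes (5.61%). The difference, neurons minus supporting cells, was 0.84 for Prkcd (95% interval 0.28 to 1.40), 0.79 for Pde12, 0.60 for Prkaa2, -0.82 for Pip4k2a, -0.72 for Pde4d and -0.36 for Pik3r4, with adjusted p from 0.601 to 0.911. For Prkcd the difference was 0.43 with no filter and without noise neuron replicates 5 and 8, described below. The p-values of this test share the limit of counting regions and are too small. The 2 effects were thus not shown to differ for any member, though for 8 of 46 the interval reached more than 1 from 0 on the log2(signal + 1) scale, and a 2-fold difference in signal is smaller than that.

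A pair of members stood out through 1 region each, noticed after the values were seen. Prkcd reached 27.9 in noise neuron replicate 8 (134 reads), where the other noise neuron regions lay between 0.520 and 5.35 and the median was 1.30. Prkg1, the main cGMP-dependent kinase, reached 63.1 in noise neuron replicate 5 (81 reads), where the others lay between 0.780 and 2.60. These were 17.9 and 40.5 times the gene's median over all regions. Among 312334 values of all genes, 13 lay above 15 times their gene's median, 2 of them among the members' 2800.

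Both genes passed the filter on low values only with these regions included. Of the 12 noise neuron regions, 3 lay above every mock neuron region for Prkcd and 1 for Prkg1. By edgeR Prkcd was higher in noise than in mock neurons by a log2 fold change of 1.98 (adjusted p 2.8e-07) and Prkg1 by 1.68 (adjusted p 0.000667), whereas limma on log values gave 0.34 and 0.32 (adjusted p 0.408 and 0.434). Without both regions the genes' mean signal over all regions fell from 2.28 to 1.70 and from 3.00 to 1.77. That is below the filter on low values (1.85), so both had been tested only through 1 region each. For the same reason edgeR without these regions tested neither gene, so its calls could not be checked in that way. With no filter and without these regions the log2 fold changes in neurons were -0.06 and -0.07 (limma adjusted p 0.921 and 0.909), and the difference of effects for Prkcd was 0.43 (adjusted p 0.86). Being computed over regions, these p-values are too small.

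**Figure D5:**
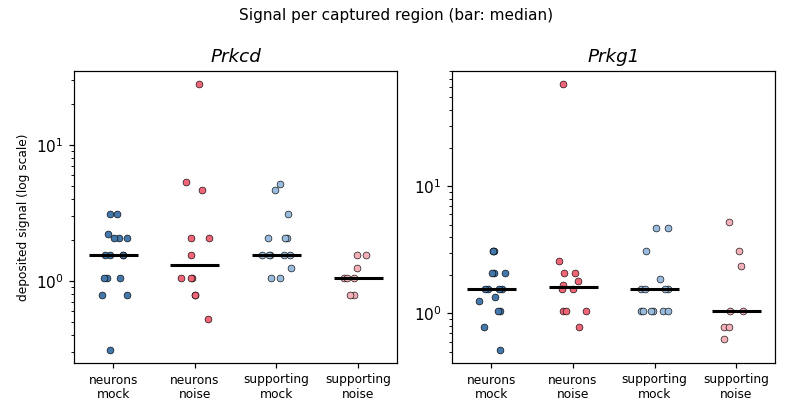
Deposited signal of Prkcd and Prkg1 on a log axis in each captured region (points) of the 4 groups, with the median (bar). A single noise neuron region stands at 27.9 for Prkcd and another at 63.1 for Prkg1, with every other region at or below 5.35 and 5.20.

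The other genes of these pathways were followed through lists of 201 symbols, of which 89 were in the files and 77 were tested. Between region types after mock 20 were higher in neurons and 3 lower by limma, against 13.4% and 5.63% of all genes. Upstream of cyclic AMP, the stimulatory G protein Gnas was 1.57 higher on the log2 scale (adjusted p 1.9e-27) and the cyclase Adcy1 by 1.17 (adjusted p 2.74e-07). Downstream, the cyclic nucleotide-gated channel Hcn2 was higher by 1.13 (adjusted p 3.7e-07), and the PKA anchoring proteins Map2 and Akap11 by 1.59 and 0.94 (adjusted p 6.24e-13 and 6.73e-05). In the lipid arm Cds1, which makes a precursor of inositol lipids, was higher by 1.60 (adjusted p 4.84e-13) and the phosphatase Synj1 by 1.08 (adjusted p 2.19e-06). The 3 lower genes were the G protein subunits Gnb2 and Gng5 and the adaptor Gab1, at -0.64, -0.56 and -0.59 (adjusted p 0.00491, 0.0142 and 0.00992). Regions were counted, and these p-values are too small.

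After noise 12 of the 77 were higher in neurons than in supporting cells and 0 were lower, against 6.76% and 1.17% of all genes. Map2 (1.53), Nos1 (1.05), which makes the nitric oxide that activates the cyclic GMP-forming cyclase, and Hcn2 (0.99) were among them. With noise in neurons 0 of 77 rose and 1 fell, against 0.213% and 0.448% of all genes. The gene that fell was Gnas, by 0.61 on the log2 scale (SE 0.14, adjusted p 0.014 by limma). The neuron marker sum also had a lower median after noise in these regions (212 against 266), and its part was not tested. With noise in supporting cells and in the difference of effects 0 of 77 were called, by the same test. The limit of counting regions holds for these p-values as well.

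Over all genes limma called 31 in neurons with noise (10 higher, 21 lower), 17 in supporting cells (3 and 14), 893 between region types after mock (629 and 264) and 372 after noise (317 and 55). The split between directions moved with scaling. In neurons it was 3 and 3 with quantile normalization, 1 and 6 with the negative probe subtracted, 0 and 3 with the olfactory receptor covariate and 4 and 93 when centred on genes starting with P. In supporting cells it was 27 and 26 with quantile normalization and 6 and 6 with the negative probe subtracted. Between region types after mock it was 1035 and 72, 367 and 40, and 861 and 142 with subtraction, covariate and centring, and the subtraction moved the median over all genes to 0.23. After noise it was 235 and 79 with quantile normalization.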

How the data were processed

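The authors deposited signal values, 1 file per region, with 6248 genes and 1 negative probe. A table of the whole series held the same values. Per the file values, each region had been scaled to a common upper quartile of 3.12, and 99.989% of values were whole multiples (within 0.01) of the region's lowest value, which gave the reads used for edgeR. DRAGEN and the builds mm10 and GRCm38 are named in the submitters' processing notes, without their roles. How counts of 0 were treated is not given in the sources used here. Of all entries 66 were not numbers, 0 of them in members.

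Signal was tested with limma 3.58.1 (lmFit, eBayes with trend) in R 4.3.3 on log2(signal + 1), with 4 group means over 50 regions, for the 4686 genes at or above the 0.25 quantile of mean signal (1.85). This kept 46 of 56 members. Of the rest Prkca (1.84) and Pik3ca (1.84) lay just below, and Pip5k1b (1.88) and Pik3r3 (1.89) just above. P-values were adjusted by Benjamini-Hochberg over all genes tested and called below 0.05. edgeR 4.0.16 was run on reads of 4646 genes as an alternative, among 14 alternatives and 3 added after seeing the data. The fit was tested on simulated data. Genes named are the members called, the 3 largest rises and falls per comparison and the member of each family with the highest mean signal, with pathway and marker genes from lists. The 6 members named for their ratio to the negative probe were chosen after their values were seen, as was Pde6a, called with no filter on low values. Members and lists were chosen with earlier results of these data known. All 56 symbols matched RefSeq. The result of a single marker gene is not reported here.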

Additional observations from a re-analysis of the deposited data

Results flagged for a closer look

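Dixon's 95% criterion for a single distant value, which chance alone meets in about 1 of 20 groups, was applied to 24 named members over the 8 noise supporting-cell regions. The other groups held too many regions to be examined this way. It was met by 2 members. Pde12 was at 3.74 (6 reads) in noise supporting-cell replicate 6, where the other 7 regions lay between 0.780 and 1.56. Prkar1b was at 0.780 (1 read, the floor) in replicate 1, where the others lay between 4.16 and 7.02.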

How the results depend on the processing

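Over the 14 alternatives the named members' values kept their direction and their side of the threshold in 401 cases, gained a call in 8 and lost one in 4. In 1 case the direction reversed: Prkaca with noise in neurons, to 0.2148 with the olfactory receptor covariate. Members called with noise in neurons numbered 3 by edgeR, 1 with region quality weights and 1 when centred on genes starting with P, against 0. After mock between region types they numbered 5 with the negative probe subtracted and 0 with the covariate, against 3. After noise between region types they numbered 1 with quantile normalization, 3 with the negative probe subtracted, 2 by edgeR, 1 with quality weights and 3 with the replicate block, against 0. The causes were not tested.

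Genes called with noise in neurons, 31 as reported, numbered 47 with pseudocount 10, 6 with quantile normalization, 7 with the negative probe subtracted, 3 with the covariate, 161 by edgeR (122 without noise neuron replicates 5 and 8, added after seeing the data) and 97 when centred. In supporting cells, 17 as reported, they numbered 26 with pseudocount 10, 11 with no filter (10 without those replicates), 7 without the region titled supporting cells R8, 53 with quantile normalization, 7 by edgeR (7 without those replicates) and 8 with quality weights. The difference of effects gave 1 gene with pseudocount 10 and 1 with quantile normalization, against 0. Region types after mock gave 407 genes with the covariate, against 893.

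Replicate numbers of the titles did not pair regions (median correlation of same-numbered deviations from -0.0134 to 0.0102, none above 0.1). With the replicate block, 19 genes were called with noise in neurons, and Pde1a (-0.75), Prkaca (0.83) and Prkcd (0.70) between region types after noise.

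Leaving out 1 region at a time gave 12 to 35 genes with noise in neurons: 16, 12, 19 and 16 without noise neuron replicates 1, 2, 9 and 10, and 19 and 19 without mock neuron replicates 9 and 10. In supporting cells it gave 3 to 21: 11, 7, 3 and 7 without noise supporting-cell replicates 4, 5, 7 and 8, and 10, 11, 11 and 9 without mock supporting-cell replicates 6, 8, 9 and 12. Between region types it gave 844 to 932 genes after mock and 282 to 398 after noise. Members called ranged from 3 to 4 after mock and from 0 to 2 after noise, where leaving out noise neuron replicates 1, 5 or 12 or noise supporting-cell replicate 7 called Pde1a, noise neuron replicate 2 Pip5k1c and Prkcd, noise neuron replicate 9 Pip5k1c and Prkaca, and noise supporting-cell replicates 5 and 6 Prkaca and Pde12. Depth limits these comparisons: 21.3% to 48.0% of member values in a group lay at 1 read, below which no fall could be measured.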
